A study of Mus musculus with 8 samples.

Results

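The core loop of the circadian clock was examined in brown adipose tissue (BAT), the thermogenic fat, of mice that had undergone thoracic aortic constriction (TAC), in which a band narrows the aorta and loads the left ventricle with pressure, or a sham operation (Sham). The loop was taken as 10 genes given by name, which are Arntl, also called Bmal1, Clock and Npas2 on the activating side and Per1, Per2, Per3, Cry1, Cry2, Nr1d1 and Nr1d2 on the repressing side. They were chosen by name with earlier results of these data known, and the rule itself uses no measured value. Each of the 10 had 1 probe with 1 spot among the 55681 probes of the array that are not controls, and 9 of the 10 passed the filter on dim probes, as did 33378 probes in all. All mice were male C57BL/6NCrSlc without a genetic change named in the labels, had surgery at the age of 11 weeks and were 13 weeks old at collection. They were housed at 23 °C with free chow and water under 12 hours of light and 12 hours of dark, and each group had 4 mice with 1 one-colour Agilent array each. The source name and the treatment protocol put collection 2 weeks after surgery, while the description line gives 4 weeks. The age of 13 weeks goes with the 2 weeks and not with the 4. The time of day at collection is not given in the sources used here. BAT was taken whole, so fewer cells of a type and less RNA per cell cannot be told apart.

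The clock is a feedback loop that runs in nearly every cell. ARNTL pairs with CLOCK, or in some tissues with its relative NPAS2, and the pair binds E-boxes in promoters and switches on the Per, Cry and Nr1d genes. The PER and CRY proteins enter the nucleus and silence the pair, while REV-ERBα and REV-ERBβ, the products of Nr1d1 and Nr1d2, bind ROR elements and silence Arntl. Across a day Arntl and Nr1d1 therefore run about opposite to each other, and a sample taken at a single moment shows each animal at 1 point of the cycle. In BAT the REV-ERB proteins are also known to hold back Ucp1 and thermogenesis, and the clock gives the tissue a daily rhythm of heat production.

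The sequences through which the loop closes on itself are shown for 5 members, because the comparisons below set these activators and repressors against each other. They come from the RefSeq promoter table of assembly GRCm38.p6, which covers 250 bases before to 50 bases after each start site and holds 13 windows for 9 of the 10 members, all except Per2. Capitals mark the motifs searched, on both strands. These were the E-box CACGTG, the near E-box CACGTT, the D-box TTATGNAA and the ROR element ANTAGGTCA with its core AGGTCA, which the longer element contains. The Arntl stretch lies at chr7:113207529-113207557 on the plus strand, 19 to 47 bases after the start site, and its capitals are a ROR element. The Cry1 stretch at chr10:85185064-85185159, the Per1 stretch at chr11:69098743-69098828, the Per3 stretch at chr4:151044791-151044895 and the Nr1d1 stretch at chr11:98775378-98775440 all lie upstream of the start, on the minus strand except for Per1. In Cry1 the capitals are a near E-box, here read from its other strand, and then an E-box, in Per1 an E-box and then the core of a ROR element, in Per3 a pair of D-boxes, and in Nr1d1 a near E-box, again read from its other strand.
Arntl: gaaggcagaaAGTAGGTCAgggacggagg
Cry1: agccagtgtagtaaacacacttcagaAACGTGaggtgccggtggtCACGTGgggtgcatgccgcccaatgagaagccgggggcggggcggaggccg
Per1: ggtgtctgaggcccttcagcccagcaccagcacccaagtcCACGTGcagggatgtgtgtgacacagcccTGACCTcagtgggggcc
Per3: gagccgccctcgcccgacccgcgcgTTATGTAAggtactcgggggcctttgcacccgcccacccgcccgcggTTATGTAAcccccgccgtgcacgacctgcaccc
Nr1d1: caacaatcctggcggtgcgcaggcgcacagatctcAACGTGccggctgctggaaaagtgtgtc
Of the 32851 promoters in the table, 7.15% hold the E-box, 4.68% the near E-box, 3.38% the D-box, 0.661% the ROR element and 16.3% its core. The ROR element seen in Arntl is the rarest of these among all promoters but also the longest, and its core alone is the commonest. Of the members not shown, Cry2 holds a near E-box, and Clock and Nr1d2 the core of a ROR element, while Per1 holds a D-box outside the stretch shown. The cyclic AMP element TGACGTCA, present in 1.79% of all promoters, was not found in these windows. A match of letters is a description and not a measured binding site.

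Array levels are given on the log2 scale of the deposited table of all 8 arrays, where 0 is about the 75th percentile of the probes of an array. TAC was tested against Sham with limma on the scanner values of the 7 arrays that have them (Sham 2 to 4 and TAC 1 to 4), and p-values were adjusted by Benjamini-Hochberg over the 33378 probes. The replicates are 4 separate samples per group by the labels. On the scanner arrays 54.5% to 64.3% of the spots were well above background, and the 75th percentile of intensity was between 454 and 604 units. All 7 lay on 1 slide, with Sham in row 1 and TAC in row 2, so that place on the slide and surgery cannot be told apart. By the leading principal component of all probes, with 39.3% of the variance, TAC 1 lay far from the rest (89.6 against -32.5 to 3.58). The summed level of 10 brown adipocyte markers, all well above background on the 7 arrays, was 5325 to 6510 in Sham and 4319 to 5728 in TAC. That of 11 skeletal muscle markers was 51.7 to 186 and 64.6 to 297, and that of 10 macrophage markers 52.8 to 58.4 and 44.0 to 99.9. The lowest brown adipocyte sum and the highest macrophage sum were both on TAC 1. On TAC 2 to 4 these sums were 5395 to 5728 and 44.0 to 52.1. A sum mostly follows its brightest markers. As a mean of log2 differences from Sham, the brown adipocyte markers were at -0.21 to 0.27 on the Sham arrays. On TAC 1 to 4 they were at -1.12, -0.12, 0.065 and -0.47. The muscle sum was above every Sham array on TAC 1, TAC 2 and TAC 4 (297, 234 and 297) but not on TAC 3 (64.6). The part of these differences in the clock values was not tested.

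None of the 9 clock loop genes differed between TAC and Sham after adjustment. The share of all probes past an adjusted p of 0.05 in limma was 0%, so this holds for every gene on the array. At an unadjusted p under 0.05, again 0 of 9 were called, beside 4.38% of all probes higher and 8.44% lower after TAC. The median difference of the 9 was -0.09 on the log2 scale and 7 of 9 were below 0, while the median over all probes was -0.03 and 55.9% of them were below 0. The largest difference was that of Arntl, and the intervals of the other 8 all included 0 with the 7 scanner arrays as with the 8 arrays of the table.

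**Figure D1:**
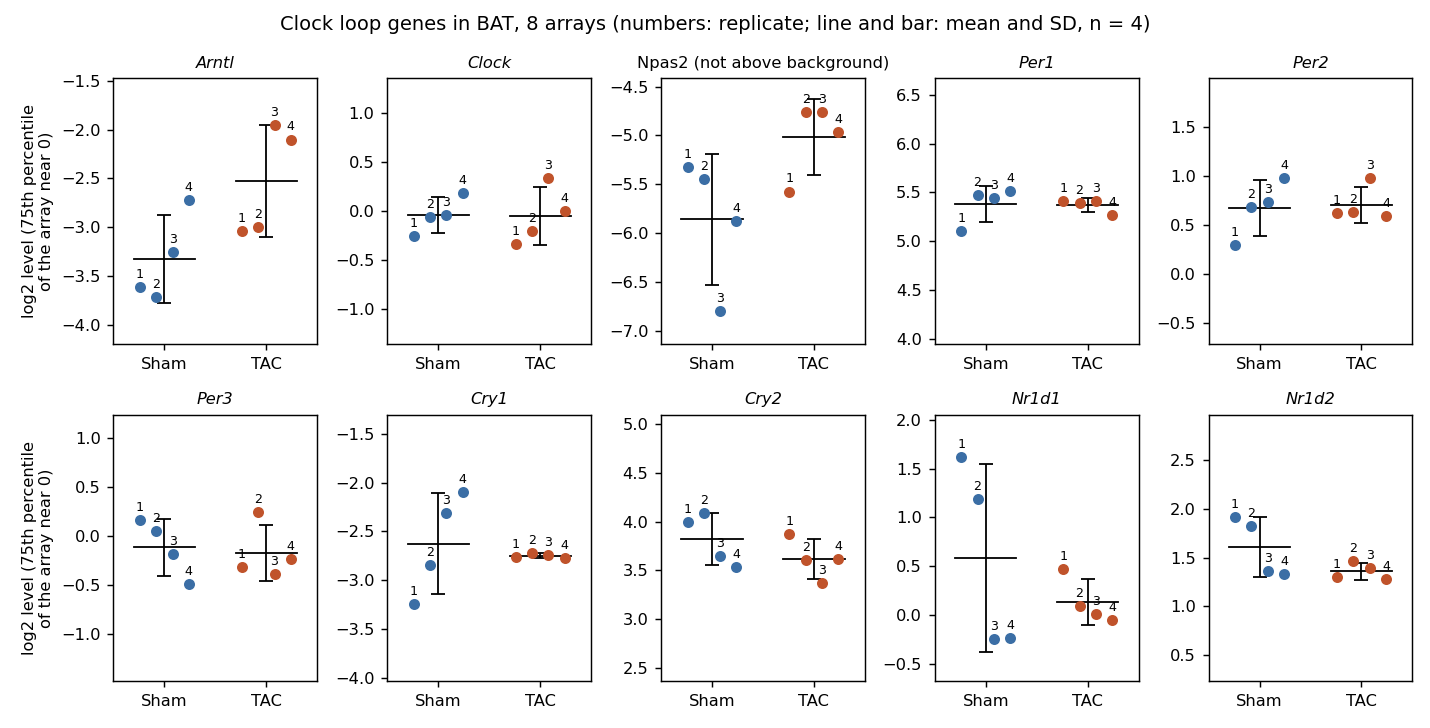
Level of each of the 10 clock loop genes on each of the 8 arrays (log2 of the deposited table, y axis, with the same length of scale in every panel) in Sham (blue) and TAC (orange). Numbers are replicates, lines are group means and bars 1 SD (n = 4), and a reader should see that the Sham arrays spread over 1.86 for Nr1d1 and 1.14 for Cry1 while the 4 TAC levels of Cry1 lie almost on each other. These 4 levels lie closer than the scanner error of that dim probe, which was 11.9% to 13.8% of its signal on the TAC arrays.

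Arntl, whose product is the shared partner of CLOCK and NPAS2, had levels of -3.61, -3.72, -3.25 and -2.72 on Sham arrays 1 to 4 and of -3.04, -3.0, -1.95 and -2.10 on TAC arrays 1 to 4. The arrays TAC 3 and TAC 4 were the highest of all 8, and 3 of 4 Sham arrays lay below the lowest TAC array, but Sham 4 lay above TAC 1 and TAC 2. The groups therefore overlapped. TAC was higher by 0.72 ± 0.36 (SE, n = 3 and 4) on the log2 scale, or 1.65-fold with a 95% confidence interval of 0.913 to 2.98 (limma unadjusted p = 0.0858, adjusted p = 0.453). With Sham 1 included from the deposited table the difference was 0.80 ± 0.32 (n = 4 and 4), with an interval of 0.07 to 1.54 (limma unadjusted p = 0.0361, adjusted p = 0.320). An exact two-sided permutation test over arrays gave p = 0.2 for 7 arrays and p = 0.114 for 8, where the smallest p possible is 0.0286. Over 29 alternative settings the difference stayed above 0, from 0.36 with normexp background correction to 1.0 without Sham 4 in the table of 8 arrays, with adjusted p from 0.217 to 0.731. On the 7 scanner arrays, leaving out 1 array gave 0.47 without Sham 2 (limma unadjusted p = 0.268), 0.53 without TAC 3 (0.180), 0.58 without TAC 4 (0.179), 0.71 without Sham 3 (0.158), 0.88 without TAC 2 (0.0550), 0.90 without TAC 1 (0.0475) and 0.98 without Sham 4 (0.0410), so that the size depends on which mice are in each group.

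Clock, the partner of ARNTL, had levels of -0.26, -0.06, -0.04 and 0.19 in Sham and of -0.34, -0.20, 0.33 and 0.00 in TAC. The highest and the lowest array were both TAC. TAC differed from Sham by -0.07 ± 0.17 (limma adjusted p = 0.886), and the 95% confidence interval of the fold, 0.720 to 1.26, leaves room for a change in either direction. Npas2, the relative that can stand in for CLOCK, was not well above background on any of the 7 scanner arrays and was not tested. Its measured levels were -5.32, -5.44, -6.80 and -5.88 in Sham and -5.57, -4.76, -4.76 and -4.97 in TAC. These overlap and are too dim for a fold.

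The REV-ERB genes differed more within Sham than between the groups. Nr1d1, which encodes the main repressor of Arntl, had levels of 1.62, 1.19, -0.24 and -0.23 in Sham and of 0.47, 0.10, 0.01 and -0.05 in TAC. Sham 1 and Sham 2 were the highest of all 8 arrays and Sham 3 and Sham 4 the lowest, with all 4 TAC arrays between them. The highest Sham level was 3.63-fold the lowest, against 1.44-fold within TAC. The SD in Sham was 0.96 (n = 4), larger than that of 99.2% of the tested probes, and 0.23 in TAC, larger than that of 59.8%. TAC differed from Sham by -0.09 ± 0.36 (limma adjusted p = 0.927) on 7 arrays and by -0.45 ± 0.43 (limma adjusted p = 0.655) on 8, and without Sham 2 the sign turned, to 0.38 (limma adjusted p = 0.499).

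Nr1d2, the second REV-ERB gene, followed the same order at its top. Its levels were 1.92, 1.83, 1.36 and 1.33 in Sham and 1.30, 1.47, 1.40 and 1.28 in TAC. Sham 1 and Sham 2 were again the highest arrays, while Sham 3 and Sham 4 lay inside the range of TAC. TAC differed by -0.13 ± 0.14 (limma adjusted p = 0.701) on 7 arrays, with an interval of the fold of 0.730 to 1.14, and by -0.25 ± 0.15 (limma adjusted p = 0.474) on 8. Without Sham 2 the 7-array difference was 0.024 (limma adjusted p = 0.939).

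The Cryptochrome genes, whose products are the strongest repressors of the ARNTL pair, went opposite ways within Sham. Cry1 had levels of -3.24, -2.85, -2.31 and -2.10 in Sham and of -2.77, -2.72, -2.74 and -2.78 in TAC. Sham 1 and Sham 2 were the lowest of all 8 arrays and Sham 4 and Sham 3 the highest, which is the reverse of Nr1d1. The SD was 0.52 in Sham, larger than that of 94.6% of the tested probes, and 0.027 in TAC, larger than that of 0.833%. Cry1 was about as dim as Arntl, with 64.2 to 109 units on the scanner arrays. The scanner error of its signal was 11.9% to 13.8% on the TAC arrays, while the 4 TAC levels lay within 1.04-fold of each other. The small SD in TAC therefore need not be the spread between mice. TAC differed by -0.31 ± 0.17 (limma adjusted p = 0.486) on 7 arrays and by -0.13 ± 0.23 (limma adjusted p = 0.83) on 8. Without Sham 2 the 7-array difference was -0.53 (limma unadjusted p = 0.00152, adjusted p = 0.215).

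Cry2 had levels of 4.00, 4.09, 3.65 and 3.54 in Sham and of 3.88, 3.60, 3.37 and 3.62 in TAC. Sham 2 and Sham 1 were the highest, as for the REV-ERB genes, and TAC 3, the array with the most Arntl, was the lowest. TAC differed by -0.12 ± 0.17 (limma adjusted p = 0.771) on 7 arrays, with an interval of the fold of 0.697 to 1.21, and by -0.20 ± 0.16 (limma adjusted p = 0.583) on 8. Without Sham 2 the 7-array difference was 0.035 (limma adjusted p = 0.943).

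The Period genes, whose products carry the CRY proteins to the nucleus and set the timing of repression, had differences between -0.09 and 0.05 on 7 arrays. Per1 had levels of 5.10, 5.47, 5.45 and 5.51 in Sham and of 5.41, 5.39, 5.41 and 5.27 in TAC. On the 7 scanner arrays every TAC array lay below every Sham array, which was so for 1 of the 9 genes and for 10.4% of all tested probes, and in the opposite direction for 0 of the 9 genes and 5.59% of the probes. The difference was -0.09 ± 0.08 (limma adjusted p = 0.641, exact two-sided permutation p = 0.0286, the smallest that 7 arrays allow). Sham 1 had the lowest Per1 of all 8 arrays, so that with it the groups overlapped and the difference was -0.01 ± 0.11 (limma adjusted p = 0.970). In the table of 8 arrays none of the 9 genes separated the groups, beside 6.29% of all tested probes with every TAC array below every Sham array and 3.52% above.

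Per2 had levels of 0.29, 0.69, 0.74 and 0.98 in Sham and of 0.62, 0.63, 0.98 and 0.59 in TAC. Both ranges ended at the same top, and the difference was -0.08 ± 0.13 (limma adjusted p = 0.808) on 7 arrays and 0.03 ± 0.16 (limma adjusted p = 0.949) on 8. Per3, the Period gene with the weakest part in rhythm keeping, had levels of 0.16, 0.06, -0.18 and -0.49 in Sham and of -0.32, 0.25, -0.39 and -0.24 in TAC. The highest and second lowest arrays were TAC and the lowest was Sham 4. Its difference was 0.05 ± 0.19 (limma adjusted p = 0.932) on 7 arrays and -0.06 ± 0.19 (limma adjusted p = 0.906) on 8, so the sign of both genes turned with Sham 1.

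**Figure D2:**
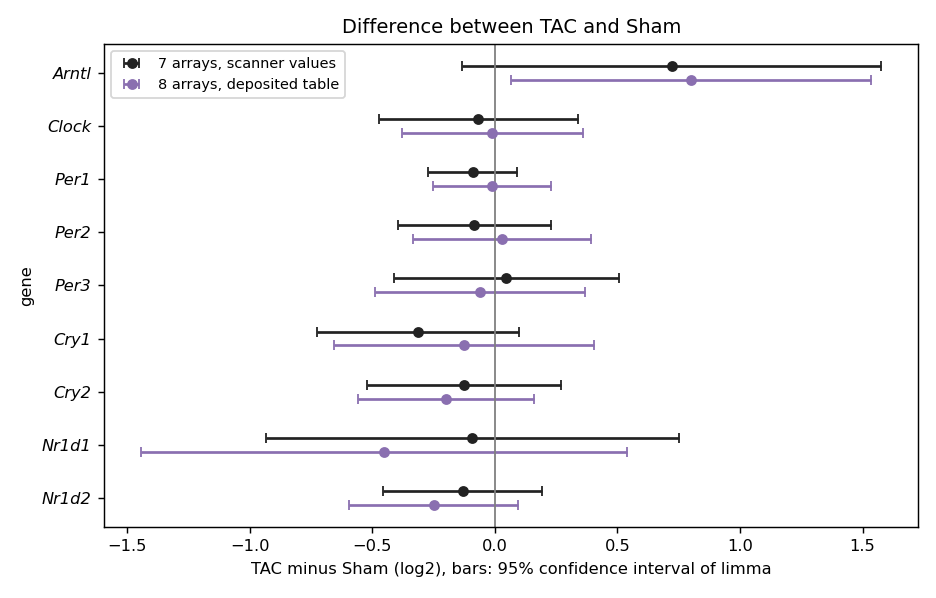
Difference of TAC minus Sham (log2, x axis) for the 9 clock loop genes that were tested (y axis), as the limma estimate (point) with its 95% confidence interval (bar), from the scanner values of 7 arrays (black) and the deposited table of 8 arrays (purple). Only the interval of Arntl in the table, 0.07 to 1.54, lies on 1 side of 0, and its adjusted p is 0.320.

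Set side by side, the genes moved with and against each other from mouse to mouse within a group. In the map of levels less the mean of 8 arrays, Sham 1 and Sham 2 had low Arntl (-0.68 and -0.79) and Cry1 (-0.55 and -0.16) together with high Nr1d1 (1.26 and 0.83), Nr1d2 (0.43 and 0.34), Cry2 (0.28 and 0.37) and Per3 (0.31 and 0.20). Sham 4 had the opposite sign for each of these 6 genes, and Sham 3 for Cry1, Nr1d1, Nr1d2, Cry2 and Per3. TAC 3 and TAC 4 had high Arntl (0.97 and 0.82) with Nr1d1 (-0.35 and -0.41), Nr1d2, Cry2, Per3 and Cry1 all below their means. TAC 1 and TAC 2 were nearer to the mean for Arntl (-0.11 and -0.08).

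**Figure D3:**
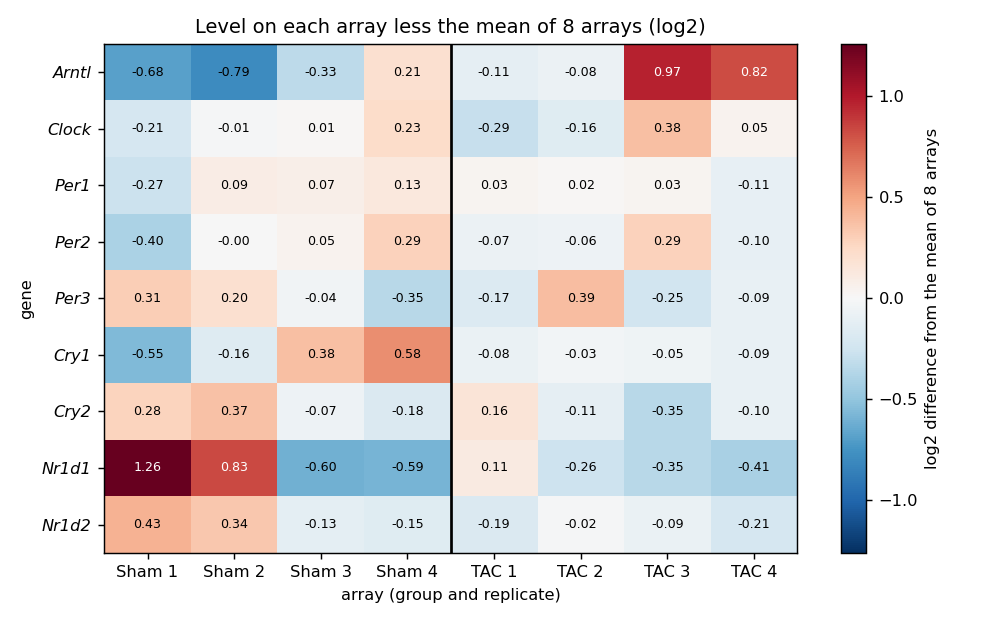
Level of the 9 clock loop genes above background (rows) on each of the 8 arrays (columns) less the gene's mean over the 8 arrays, in log2 units printed in each cell and given by the colour bar (red is higher). Nr1d1 is at 1.26 and 0.83 on Sham 1 and Sham 2 and at -0.60 and -0.59 on Sham 3 and Sham 4.

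A difference between the limbs of the loop was computed for each array to put this in 1 number, as the mean of Arntl, Clock and Npas2 less the mean of the 7 repressors, each gene relative to its Sham mean. In the mean of the repressors, genes that go opposite ways, such as Cry1 and Nr1d1 within Sham, partly cancel. On Sham 2 to 4 that mean ran from -0.09 to 0.18, while Nr1d1 alone ran from -0.48 to 0.94. A shift of phase at collection can therefore move the limbs apart in this measure but need not, and the measure was described and not tested. On the 7 scanner arrays it was -0.18, -0.19 and 0.37 for Sham 2 to 4 and 0.18, 0.49, 1.11 and 0.93 for TAC 1 to 4. Sham 4 lay above TAC 1, so the groups overlapped. The mean of TAC was 0.68 higher, with a SD pooled within the groups of 0.38. Part of this rested on Npas2, which was not above background. Without it the mean of TAC was 0.44 higher, the values were -0.48, 0.06 and 0.42 for Sham and -0.01, 0.06, 0.95 and 0.76 for TAC, and TAC 1 fell below both Sham 3 and Sham 4. With normexp background correction, which shrinks differences of dim probes such as those of Arntl and Npas2, the difference with Npas2 was 0.24.

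In the deposited table of 8 arrays the limb difference was 0.70 with Npas2 and 0.55 without it. Without Npas2, Sham 1 and Sham 2 were at -0.32 and -0.37, Sham 3 and Sham 4 at 0.16 and 0.53, TAC 1 and TAC 2 at 0.10 and 0.17, and TAC 3 and TAC 4 at 1.06 and 0.87. TAC 1 and TAC 2 thus lay beside Sham 3, and TAC 3 and TAC 4 above every Sham array. The pair of Arntl and Nr1d1 alone gave a difference, as Arntl less Nr1d1, of 1.25 between the groups, and its SD was 1.36 within Sham and 0.77 within TAC. On this pair Sham ran from -1.32 to 1.42, a span that held TAC 1 and TAC 2 at 0.40 and 0.81.

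**Figure D4:**
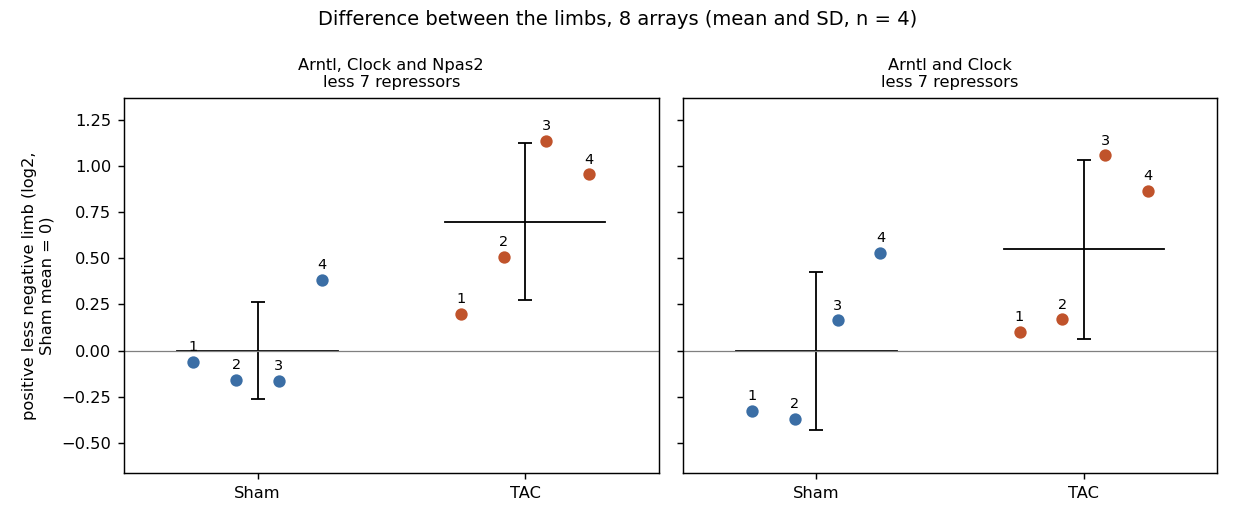
Mean of the activating genes less mean of the 7 repressing genes on each array (log2, y axis, Sham mean at 0) in Sham (blue) and TAC (orange), from the deposited table of 8 arrays, with Npas2 (left) and without it (right). Numbers are replicates, and lines and bars are mean and SD (n = 4); without Npas2 the arrays TAC 1 and TAC 2 lie at 0.10 and 0.17, between Sham 2 at -0.37 and Sham 4 at 0.53.

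Arntl was then followed against each of the other 9 genes across the 8 arrays, with exact two-sided permutation p-values adjusted over the 9 relations. How many of all tested probes follow Arntl as closely was not counted, so these relations cannot be called particular to the loop. Cry2 was the closest and was lower where Arntl was higher (Pearson r = -0.84, permutation p = 0.0109, adjusted p = 0.0982, Spearman rho = -0.90, permutation p = 0.00456, adjusted p = 0.0411). Without TAC 3 and TAC 4, the arrays farthest from the median of Arntl, r was -0.87 and rho -0.94 (permutation p = 0.0361 and 0.0167, adjusted p = 0.162 and 0.15). Without Sham 1 r was -0.80 and rho -0.86 (permutation adjusted p = 0.254 and 0.214), and with the scanner values of 7 arrays r was -0.79 and rho -0.86 (0.280 and 0.214). The adjusted rank call was thus lost in each of these alternatives, while the sign was kept. Nr1d2 (r = -0.71, rho = -0.57), Nr1d1 (r = -0.68, rho = -0.52) and Per3 (r = -0.62, rho = -0.60) were also lower where Arntl was higher, with adjusted p for r of 0.191 each by permutation. Both REV-ERB relations leaned on Sham 1 and Sham 2, the arrays high in Nr1d1 and Nr1d2. Without Sham 1, r was -0.59 and rho -0.32 for Nr1d1, and r was -0.64 and rho -0.39 for Nr1d2 (permutation adjusted p for r = 0.324 for both). Without TAC 3 and TAC 4, r was -0.82 for Nr1d1 and -0.87 for Nr1d2 (permutation adjusted p = 0.171 and 0.162).

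Clock (r = 0.64, rho = 0.67), Per2 (r = 0.53, rho = 0.34), Npas2 (r = 0.42, rho = 0.44), Cry1 (r = 0.25, rho = 0.43) and Per1 (r = 0.09, rho = -0.14) completed the 9 relations, with permutation adjusted p for r from 0.191 to 0.845. Without TAC 3 and TAC 4 r was 0.32 for Clock, -0.08 for Npas2, 0.71 for Cry1, 0.64 for Per2, 0.48 for Per1 and -0.60 for Per3, none past an adjusted permutation p of 0.05. Without Sham 1, r was -0.55 for Per1 and -0.04 for Cry1, so the sign of both turned with that array.

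The 8 arrays span both groups, and the 4 of a single group are too few for a relation of their own. With each gene centred on the mean of its group, and pairings permuted within groups, r was 0.88 for Clock and -0.82 for Cry2 (exact permutation p = 0.0104 and adjusted p = 0.0469 for both), with rho of 0.90 and -0.76 (permutation adjusted p = 0.141 for both). Arntl was thus higher with Clock and lower with Cry2 among mice of the same surgery by r, but not past adjustment by rank. The others were Per3 at -0.73, Per2 at 0.65, Nr1d1 at -0.64, Nr1d2 at -0.56, Cry1 at 0.52, Per1 at 0.17 and Npas2 at -0.04, with permutation adjusted p from 0.129 to 0.958. This centring was chosen after seeing the data, and the share of all tested probes that relate to Arntl as closely was not counted here either.

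**Figure D5:**
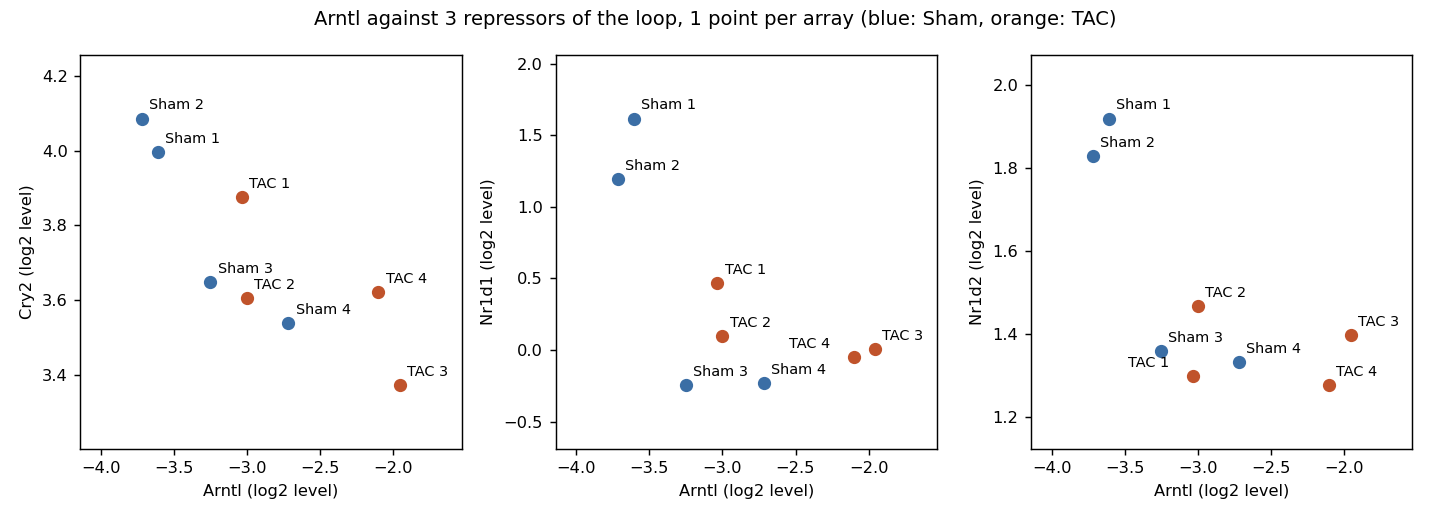
Level of Cry2, Nr1d1 and Nr1d2 (y axes, log2) against that of Arntl (x axis, log2), 1 point for each of the 8 arrays, with Sham in blue and TAC in orange. Sham 1 and Sham 2 sit at the upper left of each panel and TAC 3 and TAC 4 at the right, and r is -0.84 for Cry2, -0.68 for Nr1d1 and -0.71 for Nr1d2.

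The genes next to the core loop gave 4 differences past an unadjusted p of 0.05, all lower after TAC, and none past adjustment. The output factors, which carry the rhythm to other genes, had 3 of 7 lower and 0 higher, and the regulators of clock proteins had 1 of 22 lower and 0 higher, beside the 8.44% of all probes lower and 4.38% higher. On the 8 arrays of the table, 7 genes of these lists of 7 and 22 were lower and 0 higher at an unadjusted p under 0.05. In the same fit 3194 of the 33378 probes were lower and 1549 higher.

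Bhlhe40, which encodes the E-box repressor DEC1, had levels of 1.30, 1.63, 1.11 and 0.86 in Sham and of 0.14, 0.14, -0.60 and -0.37 in TAC. The groups did not overlap, and in each group the array with the most Arntl, Sham 4 and TAC 3, had the least Bhlhe40. The difference was -1.35 ± 0.25 (limma unadjusted p = 0.00097, adjusted p = 0.197). Ciart, which encodes a repressor of the ARNTL pair called CHRONO, had levels of -0.50, -0.38, -0.61 and -0.51 in Sham and of -1.53, -0.98, -1.03 and -1.40 in TAC, again without overlap. Its lowest arrays, Sham 3 and TAC 1, were not those with the most Arntl. Its difference was -0.72 ± 0.16 (limma unadjusted p = 0.00267, adjusted p = 0.199). Over 29 settings these differences kept their sign, with the lowest adjusted p at 0.0746 for Bhlhe40 and 0.0940 for Ciart, both with normexp. Bhlhe40, Ciart and, below, Cipc were named for a low unadjusted p, which favours groups that do not overlap. Of all tested probes, 6.29% had every TAC array below every Sham array on the 8 arrays.

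Dbp, an activator at D-boxes such as those shown for Per3 and itself switched on by the ARNTL pair, had levels of 6.48, 6.37, 6.43 and 5.71 in Sham and of 5.55, 5.92, 5.28 and 5.25 in TAC. Sham 4, the Sham array with the most Arntl, had the least Dbp of its group and lay below TAC 2, while TAC 3 and TAC 4, with the most Arntl of all, had the least Dbp of all. The difference was -0.65 ± 0.23 (limma unadjusted p = 0.0266, adjusted p = 0.343), and a second Dbp probe gave -0.72 (limma adjusted p = 0.327). Cipc, which encodes an inhibitor that binds CLOCK, had levels of 3.45, 3.57, 3.66 and 3.54 in Sham and of 2.99, 3.22, 3.30 and 3.33 in TAC, with no overlap. Within Sham its order was not that of Arntl, with Sham 1 the lowest and Sham 3 the highest. Within TAC it was lowest on TAC 1, which also had the least Arntl of TAC, and highest on TAC 4. The difference was -0.37 ± 0.11 (limma unadjusted p = 0.0119, adjusted p = 0.285), and its second probe gave -0.31 (limma unadjusted p = 0.1).

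Other genes whose pattern over the 7 scanner arrays was most like that of the most variable members were found by the root mean square difference of their centred log2 levels, as a description. Among the members above background the most variable were Arntl (SD 0.64 over 7 arrays), Nr1d1 (0.50) and Cry1 (0.28). The smallest differences from Arntl were those of Gm10584 (0.19), Dnajb8 (0.23) and Fst (0.23), which encodes follistatin, a binder of activin. From Nr1d1 they were those of Ccn1 (0.15), which encodes a matrix protein, Btg2 (0.17), a gene of growth arrest, and 4930515G16Rik (0.18). From Cry1 they were those of Pex5l (0.059), Desi1 (0.091) and Ctla2a (0.092). Fst, for instance, was at -0.07, 0.21 and 0.63 on Sham 2 to 4 and at 0.11, 0.59, 1.83 and 1.05 on TAC 1 to 4 on the scanner scale, and so shared with Arntl the peak on TAC 3 and the lowest level on Sham 2.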

How the data were processed

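Cy3-labelled cRNA from 100 ng of total RNA of whole BAT was hybridized to one-colour Agilent arrays, which the authors extracted with Feature Extraction 10.7.1.1 per the labels. The deposited scanner intensities of 7 arrays are on a linear scale, corrected for background but not for differences between arrays. The deposited table holds 1 intensity per probe on all 8 arrays, and it is the only source for Sham 1. On the 7 scanner arrays it was proportional to the scanner value (99.8% or more of values above 100 units within 1% of the array's median ratio). Its 75th percentile was 1.002 to 1.004 on each of these arrays. Values below 100 units, among them most of Arntl and Cry1 and all of Npas2, were not in this check.

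Spots flagged as outliers were dropped, log2 intensities were centred on the 75th percentile of each array, and spots of a probe were averaged. Probes well above background on at least 3 of 7 arrays and measured on at least 2 of each group were tested with limma 3.58.1 in R 4.3.3 (lmFit, eBayes, no block). The filter was not met by Npas2. A simulation with 200 changed probes, chosen at random and with independent noise, recovered 91% of 4-fold and 53% of 2-fold changes. It left out shifts that many probes share on an array, so these shares need not hold for a variable gene such as Arntl. The number of arrays limits the precision. Symbols came from a RefSeq table of GRCm38.p6, which named 28026 of 55681 probes. The brightest tested probe stands for a gene.

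Members and lists were chosen with earlier results of these data known. The genes named were the members, the pathway genes past an unadjusted p of 0.05, and for the 3 most variable members the 3 most similar genes. Npas2, the most variable by SD, was left out of the latter as too dim. Permutation tests used Python 3.11.15. Alternatives covered background correction, scaling, source, filter, outlier spots, variance model, the methods' test, the replicate block, probe averaging, array weights and each array left out. The results of 1 marker list and 1 pathway list are not reported here.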

Additional observations from a re-analysis of the deposited data

Results flagged for a closer look

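Among 30 groups of 4 arrays examined for a lone array, 4 held an array whose gap to its nearest neighbour was above Dixon's 95% critical share of the group's range. Chance gives this in about 1 of 20 groups. Per1 on Sham 1 was at 5.10, against 5.45 to 5.51 on the other Sham arrays (gap 0.844 of the range), and this array decides whether the groups overlap for Per1. Per1 on TAC 4 was at 5.27, against 5.39 to 5.41 (gap 0.876). Per2 on TAC 3, the array with the most Arntl, was at 0.98, against 0.59 to 0.63 (gap 0.892). Dbp on Sham 4 was at 5.71, against 6.37 to 6.48 (gap 0.866).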

How the results depend on the processing

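No clock loop gene passed an adjusted p of 0.05 under any of the 29 alternatives. At an unadjusted p, 1 member (Arntl) was higher in the table of 8 arrays, with the replicate block in either source, without Sham 4 or TAC 1, and in the table without Sham 4, TAC 1 or TAC 2, and 1 (Npas2) was higher with no filter on dim probes. The members called ranged from 0 to 1 higher and from 0 to 1 lower (Cry1, without Sham 2) when single arrays were left out. The replicate block rests on numbers that do not pair the mice (correlations of -0.025 to 0.00091 on 7 arrays and 0.020 to 0.269 on 8). It gave 1 other pathway gene higher in either source, beside 1344 of the 33378 probes higher on 7 arrays and 1577 in the table of 8. On 7 arrays the block also drops TAC 1, whose number has no Sham partner there, and Clock was 0.032 with it, the same as without TAC 1 and no block. With Sham 1 added from the table, Per2 turned to 0.029 and Per3 to -0.060, with or without the block. Other pathway genes lower numbered 7 in the table of 8 arrays, beside 3194 of its 33378 tested probes. With single arrays left out they numbered 3 to 9 lower and 0 to 2 higher, beside the counts over all probes that close this paragraph. Probes past an adjusted p numbered 1 lower with normexp, median scaling or array weights (added after seeing the data), and 0 to 14 higher and 0 to 2 lower with single arrays left out, the most without TAC 4 in the table. At an unadjusted p these were 902 to 1598 higher and 1499 to 3595 lower, the fewest without Sham 3.

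With single arrays left out, Arntl ranged from 0.47 to 1.0, Clock from -0.20 to 0.086, Per1 from -0.10 to 0.031, Per2 from -0.18 to 0.13, Per3 from -0.20 to 0.17, Cry1 from -0.53 to 0.048, Cry2 from -0.29 to 0.035, Nr1d1 from -0.73 to 0.38 and Nr1d2 from -0.34 to 0.024. Cry2, Nr1d1 and Nr1d2 turned without Sham 2, and Cry1 without Sham 4 in the table. The limb difference was 0.24 with normexp and, with Npas2 kept, from 0.53 to 0.87 with single arrays left out. It was 0.94 for Arntl and Npas2 less Nr1d1, Nr1d2 and Per3, and 0.68 without the REV-ERB genes. Without Npas2, which was not above background, these were 0.78 and 0.44 (added after seeing the data). Arntl turned against Npas2 without TAC 3 and TAC 4 (r = -0.075), against Per1 on 7 scanner arrays (-0.50) and without Sham 1 (-0.55), and against Cry1 there (-0.0033 and -0.039). Centred within groups, r against Npas2 was -0.039. By r, 2 of the 9 relations (Clock at 0.88 and Cry2 at -0.82) then passed an adjusted p, against 0 across the groups. The share over all tested probes was not counted. The cause was not tested. Arntl, Cry1 and Npas2 are dim, and background correction bears most on dim probes.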
